A study of Homo sapiens with 2 samples.

Results

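The genes described here encode transporters of the SLC2 family, which carry hexoses and related sugars, and of the SLC16 family, which carry monocarboxylates such as lactate and pyruvate. Members were chosen by the log2 difference between the 2 arrays of the study, rLCC111 minus BSA, within a list of 9 gene symbols: SLC2A1, SLC2A3, SLC2A6, SLC2A10, SLC2A12, SLC16A1, SLC16A3, SLC16A4 and SLC16A7. Of these, 7 have a sequence with 1 gene symbol in the platform annotation used here, among 18417 genes in all, and SLC16A1 and SLC16A3 were not analysed here. The same contrast chose the list, so the differences of the members are a description and not a test. HT1080, an established human fibrosarcoma line, was seeded on BSA (bovine serum albumin, the control coating) for the first array and on rLCC111 for the second, and RNA was taken after 24 h. The rLCC111 protein is a recombinant fragment with the coiled-coil part of the mouse laminin α1, β1 and γ1 chains, secreted by a human embryonic kidney line. It also holds a few laminin EGF-like modules from each chain, and short peptide tags. Both sets of wells held the same line, which was kept in DMEM with heat-inactivated fetal calf serum, L-glutamine and antibiotics. The sources used here give no glucose content for it and do not name the medium of the arrayed wells. The model is a single tumour line at 1 time, with no array for intact laminin or for an untransformed cell. Each coating has 1 array, so no value has a replicate, an error or a p-value.

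Facilitative glucose transporters let glucose down its gradient into the cell, where hexokinase traps it for glycolysis. Cells that ferment much of their glucose, as many tumour cells do, export the lactate through monocarboxylate transporters, which move it together with a proton. Some of these need a single-pass membrane glycoprotein, basigin or embigin, to reach the cell surface. SLC2A1 (GLUT1) and SLC2A3 (GLUT3) are the classical high-affinity transporters of the surface, whereas SLC2A6 (GLUT6), SLC2A10 (GLUT10) and SLC2A12 (GLUT12) are later-found class III transporters held largely on internal membranes. SLC16A7 (MCT2) is a high-affinity lactate and pyruvate transporter, and SLC16A4 (MCT5) belongs to the family by sequence while its cargo is less well known.

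The regions just upstream of SLC2A12 and SLC16A4, the 2 members with the largest differences, are shown beside that of SLC2A1, the classical transporter, to let the promoters be compared. Each is the 250 bases before the annotated start of the gene in RefSeq, build GRCh38.p14, on the strand of the gene. Capitals mark matches on either strand to 5 short motifs, which are the TATA box spelled TATAAA, the CCAAT box with its own 5 letters, the GC box spelled GGGCGG, the E box spelled CACGTG and the AP-1 site spelled TGANTCA. No match overlapped another.
SLC2A12, chr6:134052625-134052874, minus strand: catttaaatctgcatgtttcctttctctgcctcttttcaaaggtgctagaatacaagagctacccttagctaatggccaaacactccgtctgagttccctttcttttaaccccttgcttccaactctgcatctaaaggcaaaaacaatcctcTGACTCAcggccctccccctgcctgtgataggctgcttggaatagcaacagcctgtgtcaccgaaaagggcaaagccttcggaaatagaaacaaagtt
SLC16A4, chr1:110391027-110391276, minus strand: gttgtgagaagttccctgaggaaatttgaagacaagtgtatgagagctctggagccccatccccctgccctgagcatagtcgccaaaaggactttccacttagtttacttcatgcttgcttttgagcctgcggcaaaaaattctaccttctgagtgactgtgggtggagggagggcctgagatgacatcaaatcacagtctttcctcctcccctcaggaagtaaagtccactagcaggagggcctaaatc
SLC2A1, chr1:42958869-42959118, minus strand: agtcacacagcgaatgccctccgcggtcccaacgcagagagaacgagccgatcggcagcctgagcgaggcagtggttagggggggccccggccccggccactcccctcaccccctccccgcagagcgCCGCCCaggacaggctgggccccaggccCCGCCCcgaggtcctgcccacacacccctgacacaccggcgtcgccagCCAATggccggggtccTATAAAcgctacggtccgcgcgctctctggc
The upstream region of SLC2A12 was 46.0% G and C with 4 CpG dinucleotides, and that of SLC16A4 was 49.6% with 2. That of SLC2A1 was 72.4% with 24. The median of 35116 such regions was 58.0% and 11. A G and C share no higher than that of SLC2A12 was found in 24.7% of the regions and one no higher than that of SLC16A4 in 31.9%, while 15.4% were at least as rich as that of SLC2A1. The letters of the SLC2A12 window matched the AP-1 site once, from 98 to 92 bases before the start, and those of SLC16A4 matched none of the 5 motifs. The SLC2A1 window matched the TATA box once, from 31 to 26 bases before the start, the CCAAT box once and the GC box 2 times. Over all regions, the AP-1 site was found in 6.57%, the TATA box in 10.7%, the CCAAT box in 32.0%, the GC box in 42.6% and the E box in 6.34%. The regions of SLC2A6 and SLC2A10 were both 76.8% G and C. Those of SLC16A7 were 60.4% and 35.2%, and those of SLC16A3 ran from 64% to 83.2%. A match describes letters only, and no binding was measured.

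SLC2A12 and SLC16A4, 2 of the 7 members measured, reached 2-fold on the side of rLCC111, and no member was 2-fold lower. Over all 18417 genes the share at least 2-fold higher was 0.239%, or 44 genes, and the share 2-fold lower was 0.0869%, or 16. These became 37 and 25 genes after median centring. The rule used this contrast, so nothing is read from the count of members. The median log2 difference of the 7 was 0.49, from -0.02 to 1.40, beside a median of 0.00 over all genes. It was 0.25 for the 5 members below 2-fold. At 1.5-fold the count stayed at 2, where 1.08% of all genes passed. Levels are log2 values after RMA, the array algorithm that corrects background, normalizes and summarises over probes. A level up to 6.63, below which 95% of 374 sensory receptor genes had their mean level, is called here that of a silent gene. The log2 differences of those receptor genes had an SD of 0.18, or 0.16 without the 2 of them that passed 2-fold, and this spread among genes with little or no mRNA is used as a yardstick, not as a replicate error. It says nothing on brighter genes. The receptor differences ran from -0.31 to 1.53, so at least 1 receptor gene lay above every member.

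**Figure D1:**
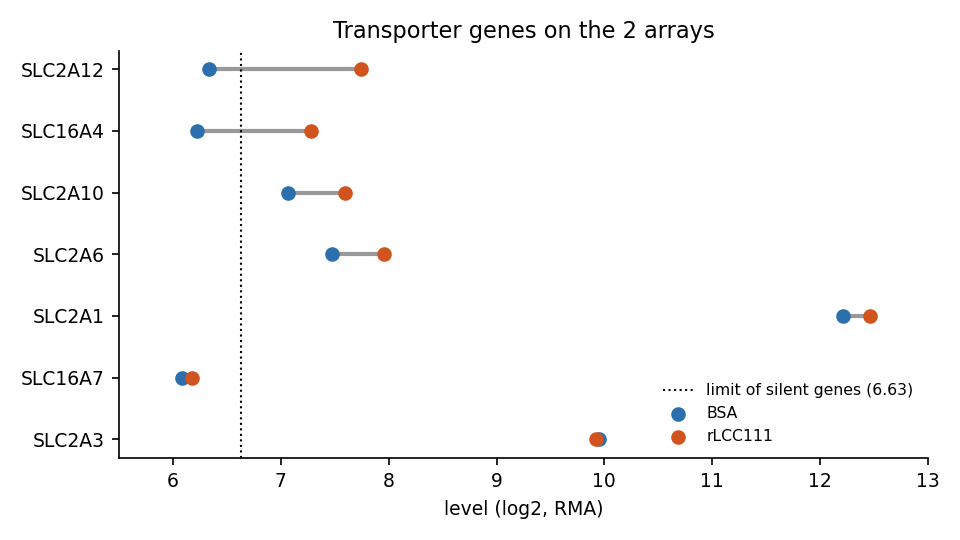
Log2 RMA level (horizontal axis) of each of the 7 members on the BSA array (blue) and the rLCC111 array (orange), 1 array per coating and therefore no error bars, with the limit of silent genes at 6.63 dotted. SLC2A12 and SLC16A4 lie on opposite sides of the limit on the 2 arrays, SLC16A7 lies below it on both, and the other 4 lie above it on both. Levels are to be read within a gene, since probes of different genes are not on a common scale.

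SLC2A12 had a log2 level of 6.34 on the BSA array and 7.74 on the rLCC111 array. The BSA array was thus 0.29 below the limit of silent genes and the rLCC111 array 1.11 above it. RNA came from whole wells, so more RNA per cell and more cells that transcribe the gene cannot be told apart, here or below. The log2 difference was 1.40, a fold of 2.64, which placed it at rank 12 of 18417 genes on the higher side. It was 7.67 times the SD of the receptor genes, although the largest receptor difference, 1.53, was higher. The BSA level is not told from that of a silent gene, so the fold rests on 1 measured level, that on rLCC111. SLC2A12 and TBPL1 overlap at their ends on opposite strands in GRCh38.p14, and TBPL1, which encodes a TBP-like factor, had a log2 difference of -0.13. The nearest measured gene on the other side, SGK1, a serum- and glucocorticoid-induced kinase, had one of 0.05. Among genes whose brighter array was above the limit, those with the most similar log2 difference over the 2 arrays were MIRLET7A2 at 1.40, NEDD9 at 1.40 and GPR21 at 1.37. GPR21 was below the limit on BSA, at 5.58. A likeness over 2 arrays is a match of 1 number.

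The remaining class III members were also on the higher side but below 2-fold. SLC2A10, the gene mutated in arterial tortuosity syndrome, was at 7.07 on BSA and 7.60 on rLCC111, both above the limit. Its log2 difference was 0.53, a fold of 1.44, at rank 267 on the higher side. SLC2A6, a transporter of lysosomal membranes, was at 7.47 on BSA and 7.96 on rLCC111. Its log2 difference was 0.49, a fold of 1.40, at rank 332. SLC2A10 and SLC2A6 differed by 0.04, and no spread between arrays is known at their levels. SLC2A12 lay 0.87 above SLC2A10 in log2 difference and 1.15 above SLC2A1. SLC2A6, SLC2A10 and SLC2A12 kept a log2 difference above 0 under every scaling tried, and so did SLC2A1, SLC16A4 and SLC16A7.

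The surface transporters among the members, SLC2A1 and SLC2A3, were closer to 0. The members were chosen by this contrast, so no difference between classes is read from them. SLC2A1 was at 12.21 on BSA and 12.46 on rLCC111, far above the limit on both. Its log2 difference was 0.25, a fold of 1.19, and 7.29% of all genes had one at least as high. It ranged from 0.17 after median centring to 0.29 after removal of a lowess trend. SLC2A3 was at 9.95 on BSA and 9.93 on rLCC111. Its log2 difference was -0.02 as deposited, the only one of the 7 below 0, but 0.00 and above 0 after lowess. SLC2A3 and its near-identical neighbour SLC2A14 have separate sequences, and how far their probes share targets is uncertain. SLC2A14 was at 7.62 on BSA and 7.64 on rLCC111. Both copies had log2 differences within 1 SD of the receptor genes, a yardstick that says nothing on genes above the limit.

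SLC16A4 was at 6.22 on BSA and 7.28 on rLCC111. The BSA array was 0.41 below the limit of silent genes and the rLCC111 array 0.65 above it. The log2 difference was 1.06, a fold of 2.08, at rank 38 on the higher side. It was 5.79 times the SD of the receptor genes, although the largest receptor difference, 1.53, was higher. It lay just past 2-fold. After median centring it was 0.98 and after quantile normalization 0.97, so the gene was no longer 2-fold higher there, while lowess left it at 1.03. Its neighbours RBM15, an RNA-binding protein gene, and LAMTOR5, a subunit gene of the lysosomal Ragulator complex, both had log2 differences of 0.11. The closest log2 differences among genes whose brighter array was above the limit were those of GPC6 at 1.05, UNC5B at 1.04 and HTRA1 at 1.09. SLC16A7 was at 6.08 on BSA and 6.17 on rLCC111, at the level of silent genes on both arrays. Its log2 difference of 0.09, which was 0.01 after median centring, is one between levels of silent genes.

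**Figure D2:**
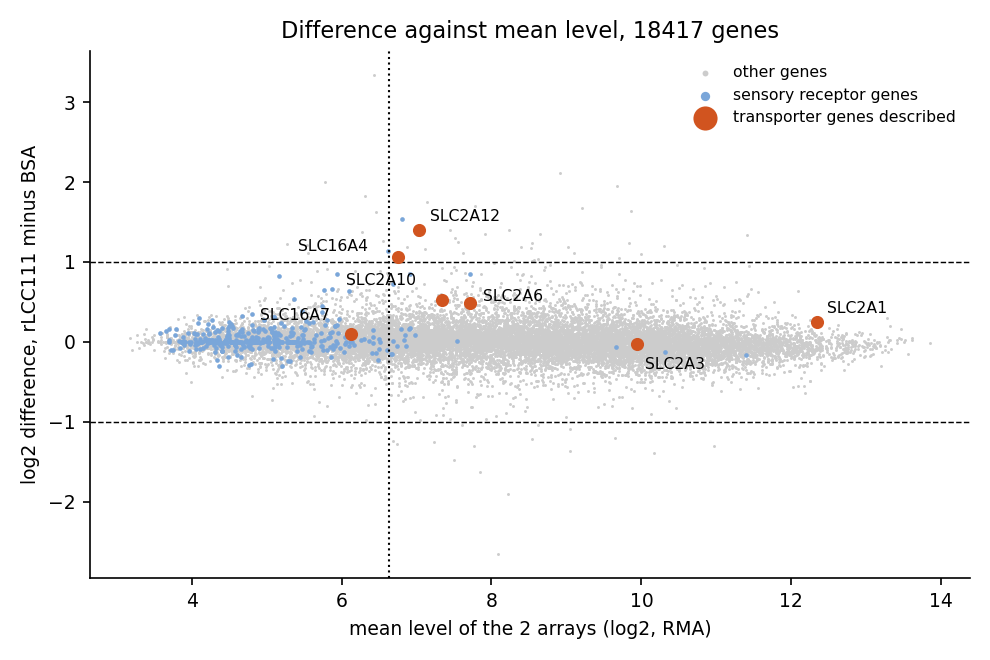
Log2 difference, rLCC111 minus BSA (vertical axis), against the mean log2 level of the 2 arrays (horizontal axis) for 18417 genes, with the 374 sensory receptor genes in blue and the 7 members in orange. Dashed lines mark 2-fold and the dotted line the limit of 6.63; SLC2A12 and SLC16A4 lie above the upper dashed line close to the limit, and SLC2A1 and SLC2A3 lie near 0 at high mean levels.

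In order of their log2 difference the members ran SLC2A12, SLC16A4, SLC2A10, SLC2A6, SLC2A1, SLC16A7 and SLC2A3. SLC2A12 and SLC16A4 were 0.34 apart, and SLC16A4 was 0.53 above SLC2A10. Between SLC2A10 and SLC2A6, SLC2A1 and SLC16A7, and SLC16A7 and SLC2A3 the steps were 0.04, 0.16 and 0.12, each smaller than the SD of the receptor genes. That SD says nothing on the members above the limit. The step from SLC2A6 to SLC2A1 was 0.23. Steps that involve SLC2A12, SLC16A4 or SLC16A7 rest in part on levels of silent genes. Among the 4 members with both arrays above the limit, none was at least 2-fold higher, where 0.211% of 12299 such genes were.

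**Figure D3:**
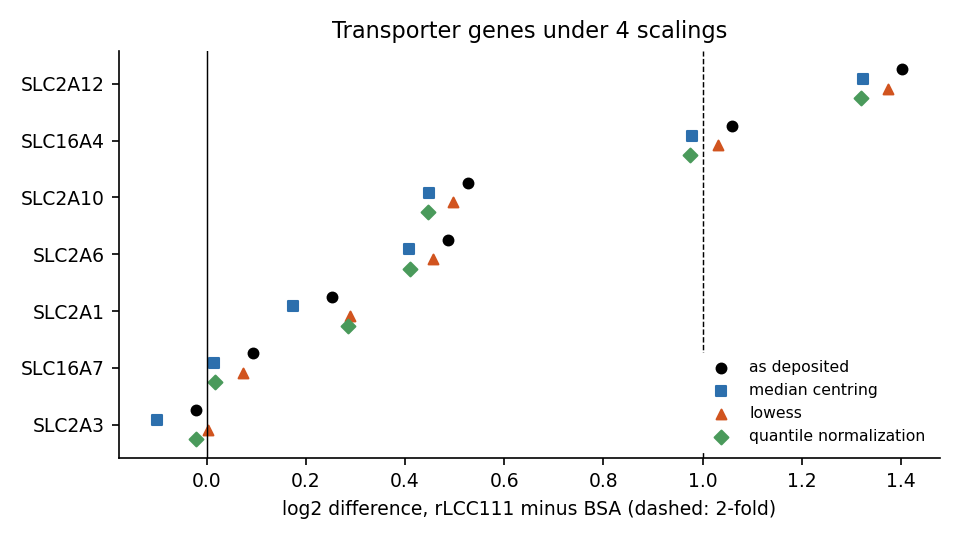
Log2 difference, rLCC111 minus BSA (horizontal axis), of the 7 members as deposited (circles), after median centring (squares), after removal of a lowess trend (triangles) and after quantile normalization (diamonds). SLC2A12 stays right of the dashed 2-fold line in all 4, SLC16A4 crosses it, and SLC2A3 is below 0 in all but lowess.

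Across the whole SLC2 family, all 14 genes were measured. SLC2A12 was the only one at least 2-fold higher, and none was 2-fold lower. Over all genes the shares were 0.239% and 0.0869%. SLC2A12 is a member chosen by this contrast, so nothing is read from the count. The family had 9 genes with a log2 difference above 0, 3 below 0 and 2 with the same value on both arrays. There were 7 above 0 and 7 below 0 after median centring. That scaling put the median of all genes at -0.08, so the sign of the smaller differences depends on where 0 is set. Over all genes 8504 were above 0 and 8588 below 0 as deposited, and 4855 above and 13562 below after median centring. The family median was 0.12 as deposited, 0.04 after median centring, 0.10 after lowess and 0.05 after quantile normalization. Among the genes outside the list of 9, SLC2A13, a proton-coupled myo-inositol transporter, was at 8.37 on BSA and 8.72 on rLCC111. SLC2A8, an internal glucose transporter, was at 7.90 and 8.12, and SLC2A4, the insulin-regulated transporter of muscle and fat, at 7.20 and 7.09. The log2 differences of SLC2A13 and SLC2A8 were 0.34 and 0.22, beside 0.25 for the surface transporter SLC2A1. SLC2A2, the liver and beta cell transporter, and SLC2A5, the fructose transporter, were below the limit with identical values on both arrays, 4.66 and 6.38. Such exact ties occurred in 2460 of 33297 sequences, or 7.39%.

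Of the 14 SLC16 genes, 8 were measured and 6 were not analysed here, SLC16A1 and SLC16A3 among them, so the family is seen in part. Over all genes 0.239% were at least 2-fold higher and 0.0869% 2-fold lower. SLC16A4, a member chosen by this contrast, was the only one of the 8 that was at least 2-fold higher, and none was 2-fold lower. The log2 difference was above 0 in 5 and below 0 in 3, with a median of 0.06. After median centring it was above 0 in 3 and below 0 in 5, with a median of -0.02, beside -0.08 over all genes. Over all genes 12299 of 18417 were above the limit of silent genes on both arrays, and of the 8 only 3 were. Of these, SLC16A10, which carries aromatic amino acids, was at 8.35 on BSA and 8.48 on rLCC111, and SLC16A5 (MCT6) at 6.91 and 6.85. SLC16A9, a carnitine transporter, was at 6.36 on BSA and 6.03 on rLCC111, both below the limit. The 15 measured genes of both families outside the list had a median log2 difference of 0.02, from -0.33 to 0.34.

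**Figure D4:**
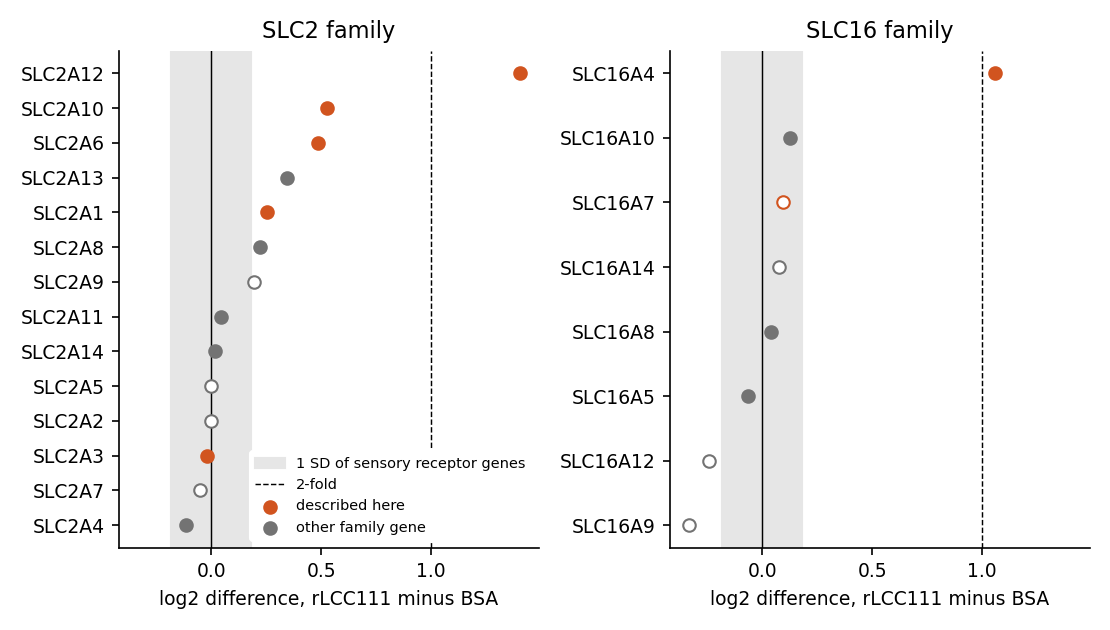
Log2 difference, rLCC111 minus BSA (horizontal axis), of 14 SLC2 genes (left) and 8 SLC16 genes (right), members in orange and other family genes in grey, with open circles for genes whose brighter array was at or below the limit of silent genes. The grey band is 1 SD (0.18) of the differences of sensory receptor genes and the dashed line 2-fold; SLC2A12 at 1.40 and SLC16A4 at 1.06 are the points past 2-fold, and the remaining genes lie between -0.33 and 0.53. Median centring lowers every point by 0.08 and turns those just above 0.

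Genes around the transporters were described from lists of known function, none of which held a gene at least 2-fold different in either direction. Over all genes the shares were only 0.239% higher and 0.0869% lower, so nothing is read from this. Among 18 other sugar and monocarboxylate carriers the median log2 difference was 0.00, with 8 above 0, 6 below 0 and 4 equal on both arrays. After median centring it was -0.08, with 3 above 0 and 15 below 0. The median of all genes was -0.08 there too, with 4855 above 0 and 13562 below 0. SLC5A4, a glucose-sensing member of the sodium-glucose family, was at 6.51 on BSA and 6.93 on rLCC111, on both sides of the limit. SLC5A3, the sodium-coupled myo-inositol transporter, had a log2 difference of 0.24 and SLC45A4 one of -0.33.

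Proteins that help or remove the transporters included the farthest of these genes from 0. EMB encodes embigin, the glycoprotein that escorts SLC16A7 and can escort other monocarboxylate transporters. It was at 8.89 on BSA and 8.02 on rLCC111, well above the limit on both. Its log2 difference was -0.87, a fold of 0.548, at rank 30 of 18417 on the lower side. BSG, which encodes basigin, the escort of SLC16A1 and SLC16A3, was at 11.89 on BSA and 11.87 on rLCC111. TXNIP encodes a protein that takes SLC2A1 off the surface and was at 8.52 on BSA and 8.00 on rLCC111. Its log2 difference was -0.52, a fold of 0.699, at rank 161 on the lower side. VAMP2, a vesicle fusion protein of SLC2A4 traffic, had a log2 difference of -0.33. The genes VPS35, VPS26A, VPS29 and SNX27 of the retromer route that returns SLC2A1 to the surface lay between -0.06 and 0.05. Of the 21 genes measured on this list, 13 had a log2 difference below 0 and 7 above 0, with a median of -0.04, and 1 had the same value on both arrays. After median centring 17 were below 0 and 4 above 0, with a median of -0.12, and after lowess 11 were below 0 and 10 above 0, with a median of -0.01. Over all genes 13562 were below 0 and 4855 above 0 after median centring, and 10281 below and 8136 above after lowess.

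The enzymes that receive the cargo were mostly close to 0. HK2, the inducible hexokinase, had levels of 10.37 on BSA and 10.14 on rLCC111 and a log2 difference of -0.24. The lactate dehydrogenase genes LDHA and LDHB both had a log2 difference of -0.03. PDP1, a phosphatase that activates pyruvate dehydrogenase, was at 11.63 on BSA and 12.01 on rLCC111, and the kinase gene PDK2, which acts in the opposite direction, had a log2 difference of 0.30. The median of the 19 genes measured was -0.07, with 13 below 0 and 6 above 0, beside 8588 below and 8504 above over all genes. None reached 1.5-fold in either direction. Of all 18417 genes only 199 were at least 1.5-fold higher and 100 lower, so nothing is read from this.

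Regulators known to act on transporter genes had a median of 0.05 over 18 genes. It was -0.03 after median centring, where the median of all genes was -0.08. HIF1A, the oxygen-regulated factor that acts on SLC2A1, had a log2 difference of 0.03 and its relative EPAS1 one of 0.32. MLXIP, a glucose-responsive factor that drives TXNIP, had a log2 difference of 0.34 and MYC one of -0.36. PPARGC1A, a coactivator of mitochondrial genes, had a log2 difference of 0.59, from 6.17 on BSA, below the limit, to 6.76. Among 20 hypoxia response genes, a list that holds SLC2A1 itself, the median was 0.11, with 13 above 0 and 7 below 0, and 0.03 after median centring. Over all genes 8504 were above 0 and 8588 below 0 as deposited. P4HA2, a collagen prolyl hydroxylase, had a fold of 1.54 and PFKFB4, which sets the glycolytic regulator fructose 2,6-bisphosphate, 1.42, whereas DDIT4, an inhibitor of mTORC1, had 0.606.

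**Figure D5:**
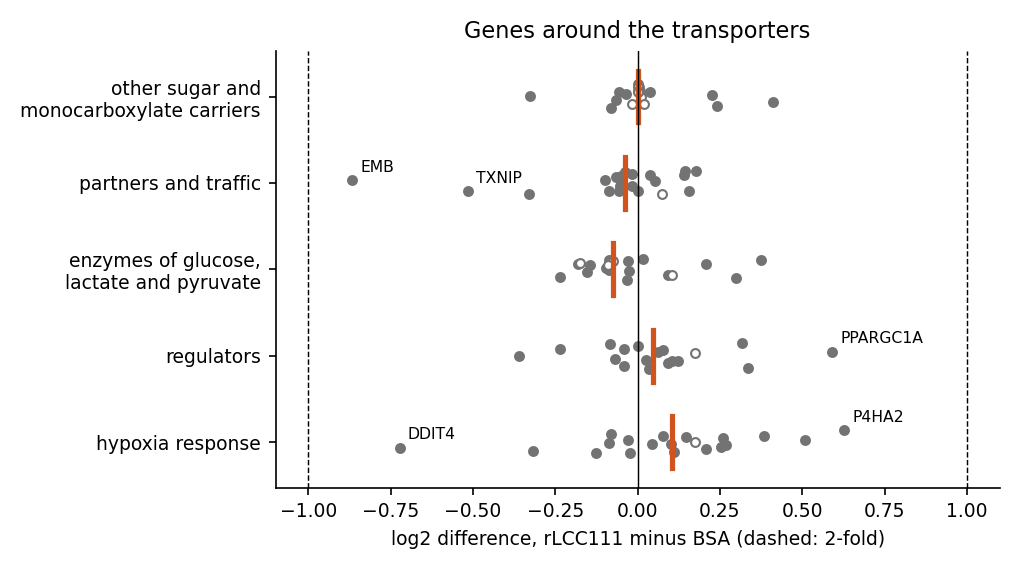
Log2 difference, rLCC111 minus BSA (horizontal axis), of each measured gene on 5 lists of genes around the transporters, with open circles for genes whose brighter array was at or below the limit of silent genes, orange bars at the list medians and dashed lines at 2-fold. Points are spread vertically for legibility. No gene passes a dashed line, and EMB at -0.87 and DDIT4 at -0.72 lie farthest from 0. The median of the regulator list, 0.05, is -0.03 after median centring, where the median of all genes is -0.08.

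Over all 33297 sequences the array medians were 7.04 for BSA and 7.12 for rLCC111. Of the markers of a mesenchymal cell, all 7 were above the limit on both arrays, VIM at 13.05 and 12.98 among them. Of 5 epithelial markers measured, 4 were below the limit on both arrays, EPCAM and CDH1 included, and KRT19 was at 7.30 and 7.46. Of 5 endothelial markers, 4 were below it and TIE1 was at 10.55 and 10.39, and of 4 blood markers, 3 were below it and CD14 was at 6.68 and 6.69. Over all 18417 genes, 12299 were above the limit on both arrays and 5746 at or below it on both. None of the markers was 2-fold different, and their part in any result was not tested.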

How the data were processed

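HT1080 RNA was measured on 2 Affymetrix Human Gene 1.0 ST arrays, 1 for the BSA coating and 1 for rLCC111. The number of wells behind each RNA is not stated. The authors ran RMA with Affymetrix Expression Console, which gives log2 levels, and deposited these. The sources used here give neither the software version nor the RMA settings. Deposited levels were used as they stand. Sequences were named from the platform annotation, with symbols updated by gene identifier to RefSeq GRCh38.p14 (19460 with 1 symbol, 1754 with several, 12083 with none). A gene took its sequence with the highest mean level, and every member measured has 1 sequence. A log2 difference of at least 1 counts as 2-fold. The methods name limma, which was not run because 1 array per coating leaves no residual degree of freedom. The number of arrays limits the precision.

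The members and lists were chosen with earlier results of these data known. Genes named are the members, in each list those at least 2-fold different and the 3 largest differences among those brighter than a silent gene on at least 1 array, the neighbours of 2-fold members, and the 3 genes nearest to each in difference. Outside this rule, the other family genes, BSG, retromer genes, LDHA, LDHB, HIF1A and EPAS1 were chosen for their roles after their values were seen. Of each marker list, examples are named.

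Alternatives were median centring, lowess (span 0.2, 3 iterations), quantile normalization, the mean of a gene's sequences, 2 filters on level and a 1.5-fold threshold. Counting was tested on simulated data with planted log2 changes larger than those of SLC2A12 and SLC16A4. The simulated noise had the size of the receptor SD at all levels, so the code was checked and not the calls. Motifs were searched in 35116 RefSeq upstream regions, and 7 of the 9 members have one. Python 3.11.15, numpy 2.4.6, pandas 2.3.3, statsmodels 0.14.6 and matplotlib 3.10.9 were used.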

Additional observations from a re-analysis of the deposited data

How the results depend on the processing

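The count of 2 members at least 2-fold higher was 1 after median centring and 1 after quantile normalization, both of which put SLC16A4 below 2-fold, so the SLC16 family count of 1 was 0 there. It was 0 among genes with both arrays above the limit of silent genes, a filter that by its construction leaves out SLC2A12 and SLC16A4, and the SLC2 and SLC16 family counts were 0 too. These counts were the same with lowess and at 1.5-fold. The mean of a gene's sequences and the filter on the brighter array could not change them, since each gene of both families has 1 sequence and SLC2A12 and SLC16A4 pass that filter through the array where they are high. No member was 2-fold lower under any alternative run. The median log2 difference of the members ran from 0.37 to 0.51. Single members moved by less than 0.18, the SD of the receptor genes, under all scalings. No scaling moved the median of all genes by over 0.1: it was -0.08 after median centring, -0.02 after lowess and -0.06 after quantile normalization. No paired analysis was possible because each coating has 1 array. Low signal over background limits SLC2A12, SLC16A4 and SLC16A7, and no left-out replicate could be tried.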
